A study of Mus musculus with 2 samples.

Results

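The AMPA and NMDA receptor subunit genes Gria1, Gria2, Gria3, Gria4, Grin1, Grin2a, Grin2b and Grin2c were taken by name, 8 of the 32285 genes in the tables. AMPA receptors are tetramers of the Gria products that carry most fast excitatory current, and the edited Gria2 product keeps a receptor nearly closed to calcium. NMDA receptors pair the obligatory Grin1 product with Grin2 products, which set how strongly magnesium blocks the channel and how long it stays open. In the hippocampus both receptor types sit opposite glutamate release sites on dendritic spines, and NMDA receptor opening there is a known trigger of long-term potentiation.

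On the mm10 (GRCm38) build, with positions from RefSeq, Gria1 (ENSMUSG00000020524) lies at chr11:57011571-57330244 and Gria2 (ENSMUSG00000033981) at chr3:80681450-80804227. Gria3 (ENSMUSG00000001986) is X-linked, at chrX:41400819-41678601, and Gria4 (ENSMUSG00000025892) lies at chr9:4417893-4796234. The NMDA subunit genes are Grin1 (ENSMUSG00000026959) at chr2:25291177-25319187, Grin2a (ENSMUSG00000059003) at chr16:9567901-9996083, Grin2b (ENSMUSG00000030209) at chr6:135713221-136173615 and Grin2c (ENSMUSG00000020734) at chr11:115249169-115267297. Values per gene are sums over the whole gene, so that splice and editing forms were not separated. Of the genes that RefSeq places inside these spans and the tables list, the most abundant was the long noncoding Gm26653 within Grin2b, with 26 UMIs in mouse 1 and 56 in mouse 2, against 2604 and 7105 for Grin2b.

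RNA was captured on the 10x Visium array, which prints barcoded spots under a tissue section, from 1 coronal section of each of 2 mice. Mouse 1 is labelled WT:C57BL/6J control and mouse 2 WT:CRISPR-Cas9 edited isogenic control; both mice expressed hM3Dq, a receptor that excites neurons when its ligand CNO is given, and both received CNO, so there was 1 group and no untreated section. Brains were fresh frozen, and the 10 µm sections were cut 1.9 mm behind bregma, while the injection lay 4.6 mm behind it. The promoter or virus that drove hM3Dq, the animals' ages and the injected image side are not stated in the labels or design text.

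Mouse 1 gave 30671753 UMIs (unique molecular identifiers, 1 per captured mRNA molecule) on 3712 spots and mouse 2 gave 55315952 on 3548, with medians of 7547 and 14663 per spot. The 8 genes had between 1094 and 6536 UMIs each in mouse 1 and between 2016 and 13645 in mouse 2. Of the barcodes, 3369 occurred in both sections, which are array positions that every slide shares and not shared cells. A spot covers several cells, and in all that follows fewer cells of a type and less RNA per cell cannot be told apart.

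Spots were sorted into 18 regions by marker genes, none of which is a subunit gene: 2201 spots of mouse 1 (59.3%) and 2346 of mouse 2 (66.1%) entered a region, and the UMIs of each region were summed per mouse. The marker sets mapped to places in the section that a coronal plane through the dorsal hippocampus would show, as the map of spots by best marker set gives. Defining markers were read in the summed counts: all 6 CA1 markers, all 8 habenula markers, all 8 hypothalamus markers and 7 of 8 relay thalamus markers were highest in their own region in both mice. Spots had been assigned by these same markers, so this was largely fixed in advance. It shows how well the sets separated and is no independent check of their identity. Only 2 of 5 layer 5 markers, 3 of 6 layer 2/3 markers and 3 of 5 layer 4 markers were, so neighbouring cortical layers were mixed. None of the 8 neuropil markers was highest in the neuropil set in both mice. Ddn, a dendritic mRNA, stood at 357 CPM (UMIs per 1000000 UMIs of the region) there and 354 in the CA1 set, and Hpca at 1097 against 1729. That region is therefore best read as hippocampal spots rich in Ddn, Psd and Hpca but poorer in pyramidal and granule cell markers than the sets they mark. Fibcd1 stood at 17.1 CPM against 136.5 in the CA1 set. The gap was narrower for Spink8, at 111 CPM against 443 in the CA1 set. It was narrower still for Bok, at 133 CPM against 358 in the CA2/CA3 set, and Rgs14, at 54.7 against 66, so these mRNAs were not absent.

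**Figure D1:**
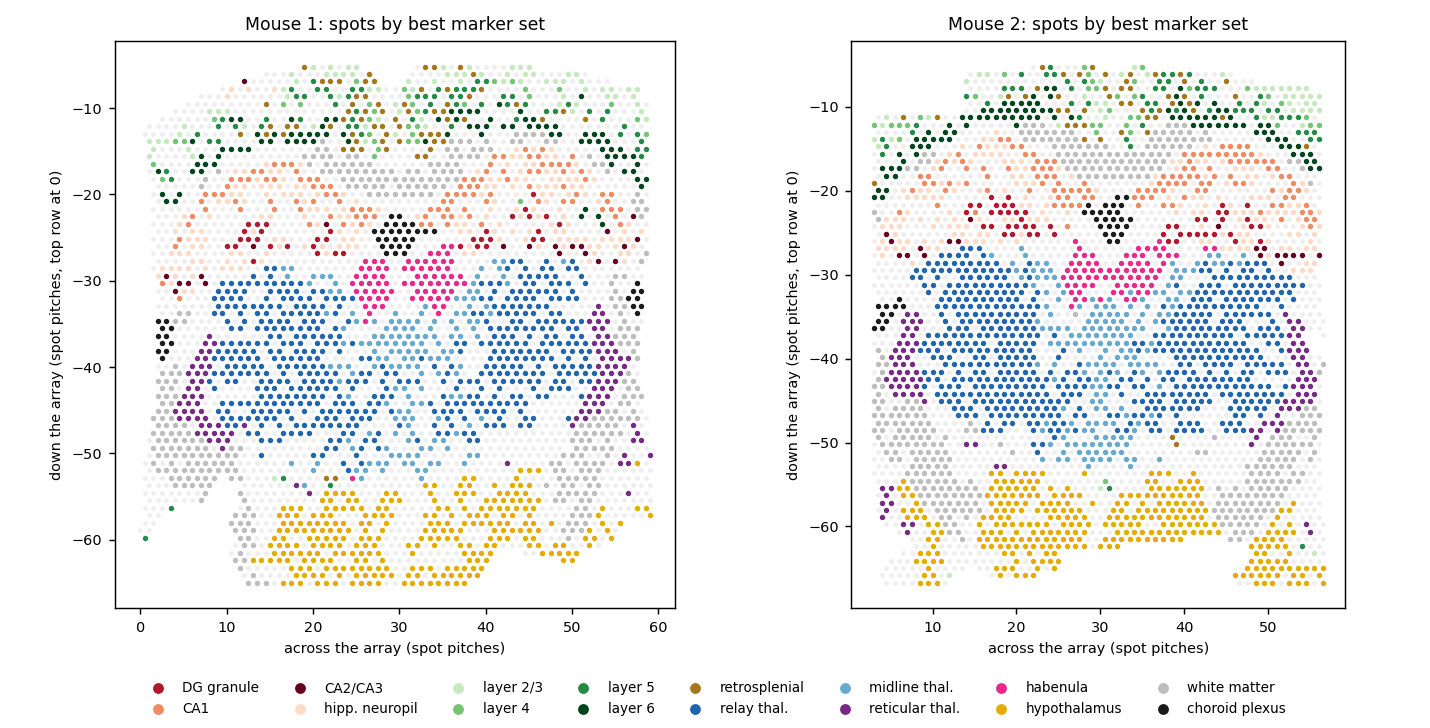
Spots of both sections, coloured by the marker set they were assigned to; axes count spot pitches across and down the array, and pale spots entered no shown region. The CA1 set (109 spots in mouse 1, 125 in mouse 2) forms an arc over the relay thalamus set (507 and 595 spots) in both sections.

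Levels are given in CPM as the mean of both mice ± SD (n = 2), after the value in each mouse. Since capture efficiency per gene is unknown, levels were compared between regions and not between genes. The choroid plexus set, an epithelium that should hold little of these mRNAs, gives the level that free RNA and neighbouring tissue can leave: 69.3 and 138 CPM for Gria1, 82.1 and 133 CPM for Gria2, 9.66 and 24.9 CPM for Gria3, 11.3 and 10.5 CPM for Gria4, 61.2 and 85.3 CPM for Grin1, 37 and 70.9 CPM for Grin2a, 22.5 and 48.6 CPM for Grin2b and 9.66 and 10.5 CPM for Grin2c. The pan-neuronal list (6 genes, none at 0) summed to 844 and 1297 CPM there, so that set held some neuronal RNA. Its levels are a reference and no floor for the section, since other regions lay lower for some genes. Grin2a stood at 25.1 and 26.6 CPM in white matter, and Gria1 at 8.33 and 32.5 CPM in the reticular thalamus.

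Gria1, whose product supports receptor delivery to active synapses, was highest in the hippocampus. Its CA1 level was 537 CPM in mouse 1 and 629.6 in mouse 2 (583 ± 65.5), followed by 369.5 CPM in mouse 1 and 425 in mouse 2 (397 ± 39.3) in the CA2/CA3 set, 260.4 CPM in mouse 1 and 488 in mouse 2 (374 ± 161) in the dentate granule set and 333 CPM in mouse 1 and 393 in mouse 2 (363 ± 42.2) in the neuropil set. CA1 stood above all others in both mice, whereas the 3 other hippocampal regions overlapped. The habenula came next among the 14 neuronal regions, at 228 CPM in mouse 1 and 274 in mouse 2 (251 ± 32.7). The neocortical layers, retrosplenial and midline sets and the hypothalamus lay between 96.9 CPM (layer 4) and 159 CPM (hypothalamus), and layer 4 lay below the others in both mice. The relay thalamus followed at 69.5 CPM in mouse 1 and 72.6 in mouse 2 (71 ± 2.22). The relay thalamus, layers 2/3, 4 and 5 and the retrosplenial set all lay within the range of the choroid plexus set for Gria1, so Gria1 comparisons with them rest on levels inside that range. The reticular thalamus was lowest, at 8.33 CPM in mouse 1 and 32.5 in mouse 2 (20.4 ± 17.1), from only 10 and 53 UMIs, which is below the choroid plexus level. CA1 exceeded it 64.4-fold in mouse 1 and 19.4-fold in mouse 2, and with so few UMIs the size of that ratio is loosely set.

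Gria2, which encodes the subunit that limits calcium entry, followed a similar hippocampal order. It measured 616 CPM in mouse 1 and 704 in mouse 2 (659.9 ± 62.8) in CA1, 552 CPM in mouse 1 and 601 in mouse 2 (576 ± 35) in CA2/CA3, 412 CPM in mouse 1 and 579.8 in mouse 2 (496 ± 118) in the dentate granule set and 449 CPM in mouse 1 and 443 in mouse 2 (446 ± 4.38) in the neuropil set. Layer 6 reached 425 CPM in mouse 1 and 460.4 in mouse 2 (443 ± 25.3), level with the neuropil set, and the other cortical sets lay between 318 CPM (retrosplenial) and 370.2 CPM (layer 2/3). Subcortical levels were lower: 178 CPM in mouse 1 and 272 in mouse 2 (225 ± 66.3) in the hypothalamus, 209 CPM in mouse 1 and 218 in mouse 2 (213 ± 6.68) in the midline thalamus, 137 CPM in mouse 1 and 140.3 in mouse 2 (139 ± 2.24) in the habenula, 138 CPM in mouse 1 and 137 in mouse 2 (137 ± 0.197) in the relay thalamus and 79.2 CPM in mouse 1 and 95.7 in mouse 2 (87.4 ± 11.7) in the reticular thalamus. The habenula and relay thalamus overlapped, and the reticular thalamus was at the choroid plexus level.

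Gria3 was spread over cortex, CA1 and relay thalamus. CA1 gave 156 CPM in mouse 1 and 139.8 in mouse 2 (148 ± 11.4), layer 6 139 CPM in mouse 1 and 141 in mouse 2 (139.5 ± 1.38), the relay thalamus 124 CPM in mouse 1 and 129 in mouse 2 (126 ± 3.55) and layer 5 137 CPM in mouse 1 and 114 in mouse 2 (126 ± 16.3). The mice overlapped between CA1 and layer 6 and between relay thalamus, layer 5 and the retrosplenial set. The 3 lowest neuronal regions were the midline thalamus (54.4 ± 7.89 CPM), hypothalamus (48.6 ± 9.53 CPM) and habenula (48.4 ± 3.8 CPM), which overlapped each other. The whole range from CA1 to habenula was 3.06-fold, narrower than for the other AMPA subunit genes.

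Gria4, a subunit gene known from thalamus and from interneurons, was highest in thalamic sets and lowest in the hippocampal cell layers. The relay thalamus gave 57 CPM in mouse 1 and 55.5 in mouse 2 (56.2 ± 1.01), the reticular thalamus 50 CPM in mouse 1 and 49.1 in mouse 2 (49.5 ± 0.664), the habenula 52.9 CPM in mouse 1 and 45.1 in mouse 2 (49 ± 5.52) and the midline thalamus 47.5 CPM in mouse 1 and 49.3 in mouse 2 (48.4 ± 1.33). Layer 4 lay among them at 69.7 CPM in mouse 1 and 32.6 in mouse 2 (51.2 ± 26.3), but from 17 and 15 UMIs, with the mice far apart. Its lowest levels were in CA1 (14.6 ± 1.57 CPM), CA2/CA3 (13.5 ± 2.44 CPM) and the dentate granule set (10.8 ± 5.04 CPM), which were close to the choroid plexus level.

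Grin1, the obligatory NMDA subunit gene, varied least of the 8, by 2.29-fold between CA1 and habenula. CA1 (258 CPM in mouse 1 and 297 in mouse 2 (277 ± 27.9)), CA2/CA3 (268 CPM in mouse 1 and 275 in mouse 2 (272 ± 4.58)) and relay thalamus (251 CPM in mouse 1 and 282 in mouse 2 (267 ± 22.4)) overlapped at the top. The midline thalamus followed at 231 CPM in mouse 1 and 234 in mouse 2 (233 ± 2.11), and the cortical, neuropil and dentate granule sets lay between 182 CPM (layer 5) and 222 CPM (layer 6). The reticular thalamus (148 ± 11.8 CPM), hypothalamus (138 ± 23.1 CPM) and habenula (121 ± 9.54 CPM) were lowest.

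Grin2a, whose product gives fast-closing NMDA receptors in the adult forebrain, was concentrated in the hippocampus. It measured 285 CPM in mouse 1 and 321 in mouse 2 (303 ± 25.2) in CA1, 177 CPM in mouse 1 and 174 in mouse 2 (175 ± 2.4) in CA2/CA3, 154 CPM in mouse 1 and 168 in mouse 2 (161 ± 9.99) in the neuropil set and 97.7 CPM in mouse 1 and 195 in mouse 2 (146 ± 68.8) in the dentate granule set. CA1 was above every other region in both mice. Relay thalamus (113 ± 7.64 CPM), the 5 cortical sets (86.5 CPM to 97 CPM) and midline thalamus (84 ± 4.56 CPM) formed an overlapping middle. The reticular thalamus gave 47.5 CPM in mouse 1 and 29.4 in mouse 2 (38.5 ± 12.8) and the hypothalamus 19.4 CPM in mouse 1 and 22.9 in mouse 2 (21.2 ± 2.52), both below the choroid plexus mean.

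Grin2b, whose product gives slow-closing receptors and binds CaMKII, had maxima in both CA1 and thalamus. CA1 gave 183 CPM in mouse 1 and 235 in mouse 2 (209 ± 37.2), the relay thalamus 158 CPM in mouse 1 and 224 in mouse 2 (191 ± 47.1) and the midline thalamus 133 CPM in mouse 1 and 156 in mouse 2 (144 ± 16.6). CA1 and relay thalamus overlapped. The hypothalamus (39.3 ± 16.7 CPM), reticular thalamus (37.6 ± 17.9 CPM) and habenula (34.4 ± 9.87 CPM) were at the choroid plexus level.

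Grin2c, a gene best known from cerebellar granule cells and thalamus, was thalamic here. The relay thalamus gave 97 CPM in mouse 1 and 89.3 in mouse 2 (93.2 ± 5.48), the reticular thalamus 72.5 CPM in mouse 1 and 61.9 in mouse 2 (67.2 ± 7.47) and the midline thalamus 51 CPM in mouse 1 and 44.7 in mouse 2 (47.8 ± 4.4), each separate from the next in both mice. The neuropil set came next at 29.7 CPM in mouse 1 and 32 in mouse 2 (30.9 ± 1.64), again with no overlap, ahead of the retrosplenial set (26.3 ± 2.63 CPM). CA2/CA3 (11.9 ± 9.7 CPM, from 1 and 8 UMIs) and the dentate granule set (11.6 ± 1.03 CPM, from 3 and 12 UMIs) were at the choroid plexus level.

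**Figure D2:**
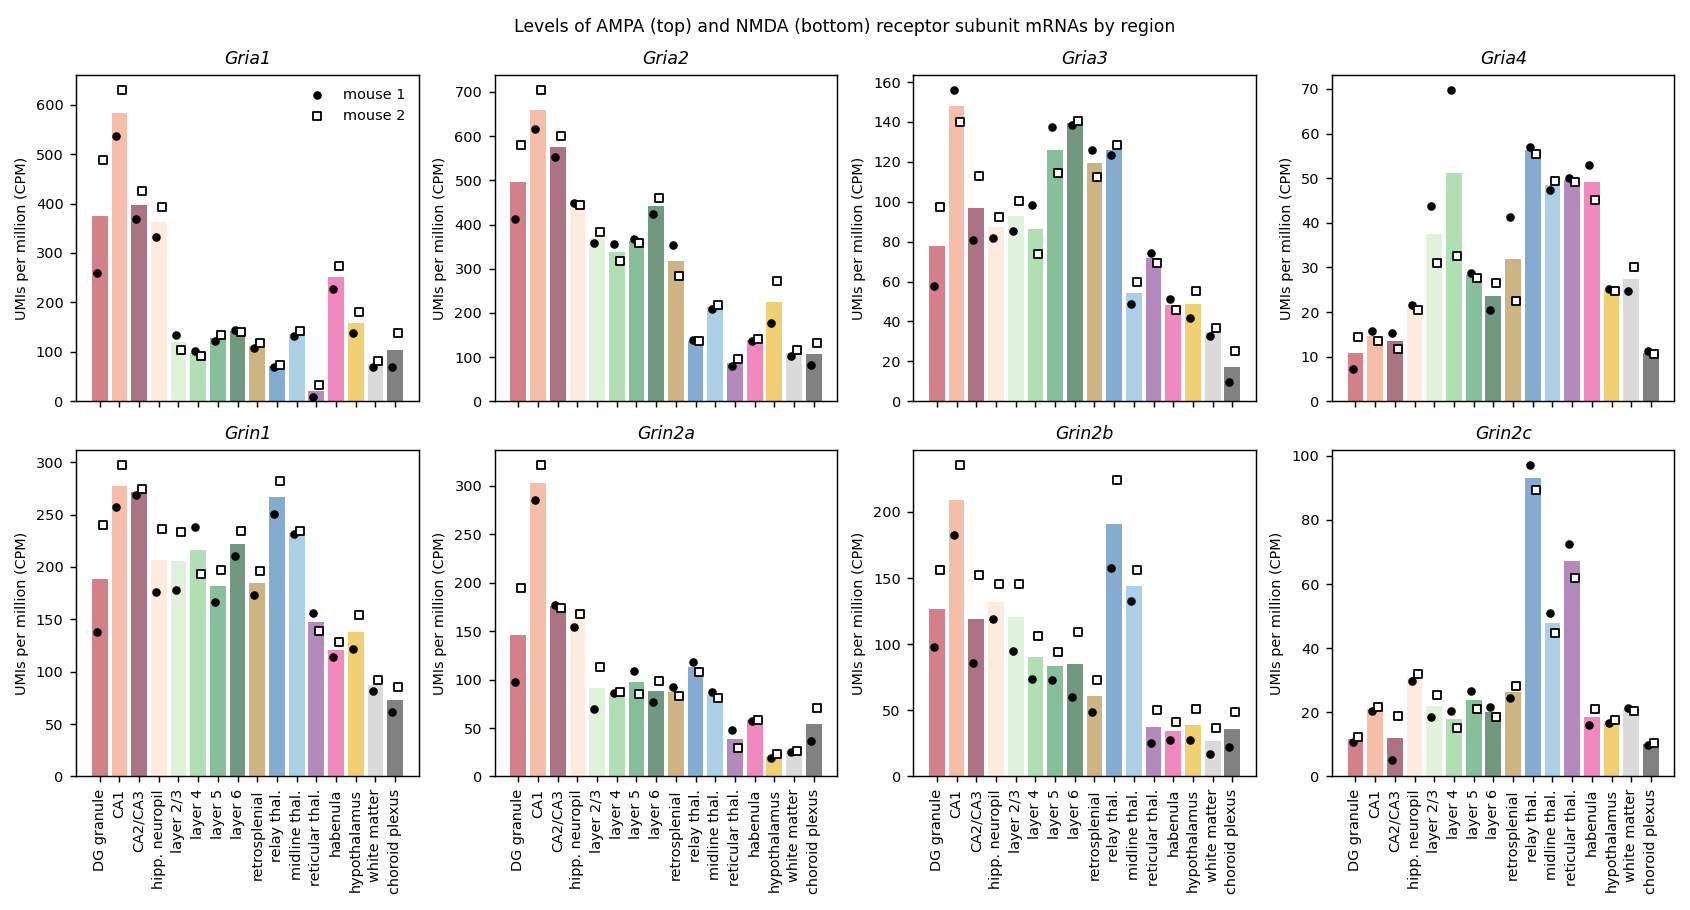
CPM of each subunit gene (one panel each; y axes differ) in 14 neuronal regions, white matter and choroid plexus; bars are means of both mice, circles mouse 1 and squares mouse 2. CA1 has the highest bar for Gria1, Gria2, Gria3, Grin1, Grin2a and Grin2b, and the relay thalamus for Gria4 and Grin2c.

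Shares were then computed per mouse, as each gene's UMIs over those of the 4 AMPA or the 4 NMDA subunit genes. They are shares of captured UMIs and not of protein or of receptors, and they were not tested. Intervals are Wilson 95% intervals and cover counting error only. Gria2 held the largest AMPA share in both mice in 13 of the 14 neuronal regions. It took 57.6% in mouse 1 and 61.9% in mouse 2 in layer 2/3, where the mean of both mice was highest, 58.4% in mouse 1 and 60.0% in mouse 2 in layer 6 and 46.5% in mouse 1 and 47.4% in mouse 2 in CA1. The habenula was the exception: Gria1 took 48.6% in mouse 1 (interval 44.2 to 53) and 54.3% in mouse 2 (51.1 to 57.4), and Gria2 29.2% in mouse 1 (interval 25.4 to 33.4) and 27.8% in mouse 2 (25 to 30.7). The Gria1 and Gria2 intervals did not overlap in either habenula. With regions from clusters the habenula gap was narrower, above all in mouse 1. Gria1 and Gria2 then took 39.9% and 35.9% in mouse 1 and 45.5% and 32.1% in mouse 2.

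Hippocampal regions had Gria1 shares from 36.6 ± 0.439% in the CA2/CA3 set to 41.4 ± 1.26% in CA1. Neocortical layers and the retrosplenial set had 17 ± 0.977% (layer 4) to 19.8 ± 1.72% (layer 5). All 4 hippocampal regions lay above all 5 cortical sets in both mice. The hypothalamus had 36% in mouse 1 and 33.8% in mouse 2 and the midline thalamus 30.3% in mouse 1 and 30.2% in mouse 2. In the relay thalamus Gria1 took only 17.9% in mouse 1 (interval 16.4 to 19.6) and 18.4% in mouse 2 (17.4 to 19.6).

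In the relay thalamus Gria3 (31.9% in mouse 1 (interval 29.9 to 33.9) and 32.6% in mouse 2 (31.3 to 34)) came within a few percentage points of Gria2 (35.5% in mouse 1 (interval 33.5 to 37.5) and 34.8% in mouse 2 (33.5 to 36.2)). With only spots that had at least 50% of neighbours in the same region, Gria2 and Gria3 took 33.7% and 33.8% in mouse 2. The reticular thalamus had 23.6% in mouse 1 (interval 18.8 to 29.2) and 19.9% in mouse 2 (16.3 to 24.1) for Gria4 and 3.94% in mouse 1 (interval 2.15 to 7.09) and 13.2% in mouse 2 (10.2 to 16.8) for Gria1, the latter with intervals that did not overlap between the mice. Gria4 was otherwise a minor component: 1.19% in mouse 1 and 0.908% in mouse 2 in CA1, 2.82% in mouse 1 and 3.45% in mouse 2 in layer 6 and 14.7% in mouse 1 and 14.1% in mouse 2 in the relay thalamus.

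Among the NMDA subunit genes Grin1 held 34.5% in mouse 1 and 33.9% in mouse 2 in CA1, its lowest share, and 65.7% in mouse 1 and 62.7% in mouse 2 in the hypothalamus, its highest. Grin2a took 38.2% in mouse 1 and 36.7% in mouse 2 in CA1 and 10.5% in mouse 1 and 9.32% in mouse 2 in the hypothalamus. CA1 was the one neuronal region where Grin2a UMIs outnumbered those of Grin1 in both mice. Within the 3 Grin2 genes alone, Grin2c took 50% in mouse 1 (interval 42.7 to 57.3) and 43.7% in mouse 2 (37.5 to 50.2) in the reticular thalamus and 26% in mouse 1 (interval 24.2 to 28) and 21.2% in mouse 2 (20.1 to 22.4) in the relay thalamus. It took 4.21% in mouse 1 (interval 2.64 to 6.63) and 3.75% in mouse 2 (2.82 to 4.99) in CA1 and 26.2% in mouse 1 (interval 20.1 to 33.4) and 19.3% in mouse 2 (15.7 to 23.6) in the hypothalamus, where its level was low. These shares rest on 164 and 388 Grin2 UMIs in the hypothalamus and 174 and 231 in the reticular thalamus, where Grin2a and Grin2b were near or below the choroid plexus level.

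The balance of Grin2a and Grin2b differed between the mice in some regions. Of the intervals given here, only those of the relay thalamus did not overlap between the mice. The reticular thalamus, whose intervals are not given here, had the mice further apart than the relay thalamus. It had 57 Grin2a and 30 Grin2b UMIs in mouse 1, and 48 and 82 in mouse 2. Of the joint UMIs of Grin2a and Grin2b, Grin2a took 61% in mouse 1 (interval 56 to 65.7) and 57.7% in mouse 2 (54.8 to 60.5) in CA1 and 56.4% in mouse 1 (interval 50.8 to 61.9) and 53.7% in mouse 2 (50.1 to 57.2) in the neuropil set, above 50% in both mice. It was also above 50% in both mice in CA2/CA3, the retrosplenial set and the habenula, which had the highest mean, with 67.8% in mouse 1 (interval 57.6 to 76.5) and 58.6% in mouse 2 (51.4 to 65.4). In the habenula, however, Grin2a (57.7 and 58.6 CPM) and Grin2b (27.4 and 41.4 CPM) both lay within the range of the choroid plexus set. Grin2a took 42.8% in mouse 1 (interval 40.4 to 45.3) and 32.4% in mouse 2 (30.9 to 33.8) in the relay thalamus, 39.7% in mouse 1 (interval 34.4 to 45.2) and 34.1% in mouse 2 (30.9 to 37.4) in the midline thalamus and 41.3% in mouse 1 (interval 32.9 to 50.2) and 31% in mouse 2 (26.1 to 36.3) in the hypothalamus, below 50% in both, as was layer 2/3 with 42.3% in mouse 1 (interval 31.5 to 53.8) and 43.7% in mouse 2 (35.8 to 51.9). In layers 4, 5 and 6 and in the reticular thalamus it was above 50% in mouse 1 and below it in mouse 2, as in layer 5 with 59.8% in mouse 1 (interval 48.9 to 69.7) and 47.5% in mouse 2 (40.0 to 55.2). For these regions the gene with more UMIs cannot be stated from 2 mice. In no region do these UMIs show which of the 2 subunits is more abundant, since capture efficiency per gene is unknown.

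**Figure D3:**
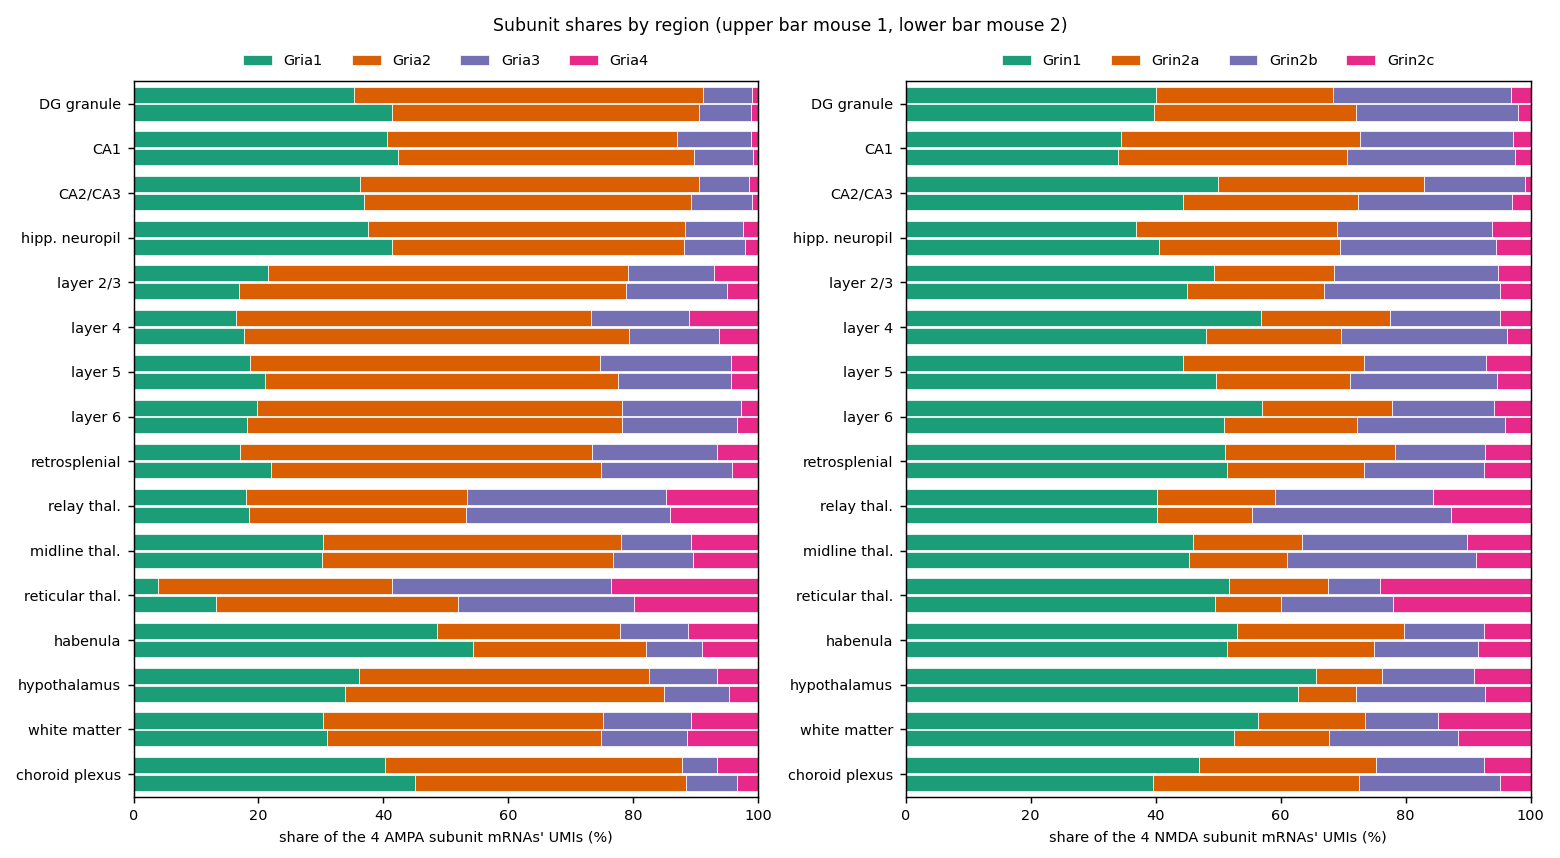
Share of UMIs of the 4 AMPA subunit genes (left) and the 4 NMDA subunit genes (right), in percent, by region; the upper bar of each pair is mouse 1 and the lower mouse 2. Gria1 reaches 51.4 ± 4.01% in the habenula and 8.56 ± 6.54% in the reticular thalamus, and Grin2c 23.1 ± 1.45% in the reticular thalamus.

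The sum of the AMPA subunit UMIs per NMDA subunit UMI separated thalamus from the rest. It was 0.621 in mouse 1 and 0.56 in mouse 2 in the relay thalamus, 0.872 in mouse 1 and 0.909 in mouse 2 in the midline thalamus and 0.704 in mouse 1 and 0.878 in mouse 2 in the reticular thalamus. All other neuronal regions were above 1 in both mice, by their means from 1.5 in mouse 1 and 1.28 in mouse 2 in layer 4 to 2.07 in mouse 1 and 2.16 in mouse 2 in the hypothalamus. The habenula, next to the midline thalamus, had 2.18 in mouse 1 and 2.03 in mouse 2. Captured UMIs of different genes were summed here, so only the order between regions can be read and not the number of receptors.

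**Figure D4:**
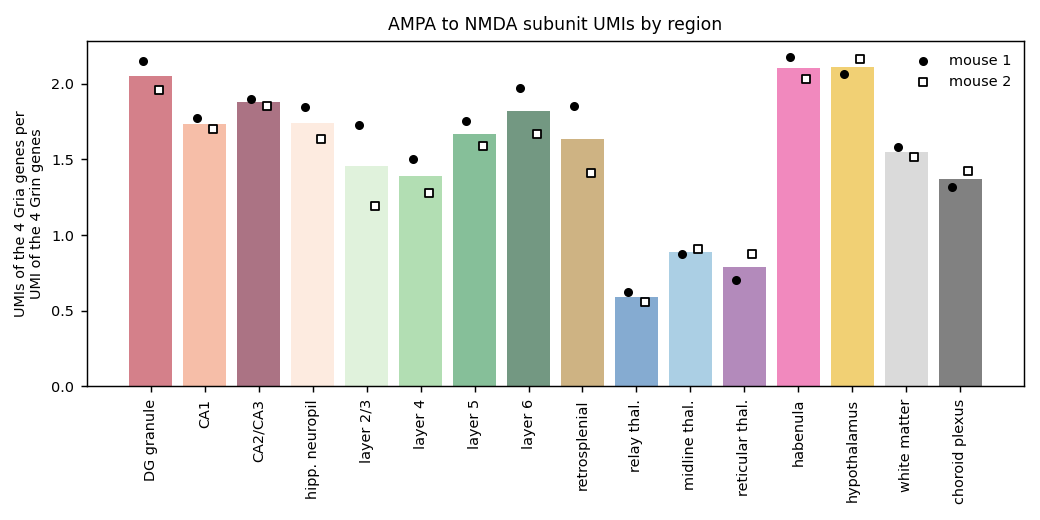
UMIs of the 4 Gria genes per UMI of the 4 Grin genes by region; bars are means of both mice, circles mouse 1 and squares mouse 2. The 3 thalamic sets lie below 1 in both mice, and the habenula at 2.1 ± 0.103.

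Region differences were tested in 1 edgeR quasi-likelihood fit over 36 libraries (18 regions in each mouse), with the mouse as a block and Benjamini-Hochberg adjustment over 11798 genes, the region markers left out. A log2 value ± SE is the fitted difference between the named regions, and its SE rests on the spread pooled over regions and genes rather than on the spread between these 2 mice in 1 comparison. Log2 values for single mice come from CPM with a prior count of 2. The subunit genes were set beside 51 other genes of glutamate synapses in 6 lists.

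Within the hippocampus, 6 of the 8 subunit genes were lower in the dentate granule set than in CA1 and none was higher, where 5.86% of all tested genes were lower, 6.15% higher and 12% called in either direction. Their median log2 difference was -0.60, against -0.01 over all genes. The largest fall was that of Grin2a (log2 -0.87 ± 0.15, adjusted p 2.66e-06). Gria3 (log2 -0.74 ± 0.18, adjusted p 0.00108), Grin2b (log2 -0.68 ± 0.16, adjusted p 0.000622), Gria1 (log2 -0.53 ± 0.13, adjusted p 0.0012), Grin1 (log2 -0.43 ± 0.14, adjusted p 0.0247) and Gria2 (log2 -0.34 ± 0.12, adjusted p 0.045) followed, and Gria4 and Grin2c did not pass. The differences were larger in mouse 1, whose 36 granule spots gave low values: Gria1 differed by -1.04 in mouse 1 and -0.37 in mouse 2, Gria3 by -1.41 in mouse 1 and -0.51 in mouse 2, Grin1 by -0.90 in mouse 1 and -0.31 in mouse 2 and Grin2a by -1.54 in mouse 1 and -0.72 in mouse 2. Pan-neuronal markers summed to 2329 and 3202 CPM in the granule set and 3261 and 3661 CPM in CA1, and blood markers (5 genes) to 3002 and 259 CPM in the granule set; their part in the result was not tested. Without the mouse as a block only 2 of the 6 calls were made.

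Among the other listed genes in the dentate granule set, calls went in both directions. Of 7 kainate and delta receptor genes 2 were higher and none lower, with Grik4 (log2 1.84 ± 0.46, adjusted p 0.00199) and Grik2 (log2 1.46 ± 0.33, adjusted p 0.000509), though Grik2 lost its call when regions came from clusters. Of 15 tested AMPA receptor auxiliary and assembly genes 3 were higher and 4 lower. Shisa9, an auxiliary subunit gene also called CKAMP44, was higher (log2 2.60 ± 0.33, adjusted p 1.46e-10), and Cnih3, a cornichon export factor, by log2 1.49 ± 0.25, adjusted p 1.7e-06. Of 19 scaffold and kinase genes 4 were lower, among them Homer1 (log2 -1.16 ± 0.19, adjusted p 4.77e-07) and Shank1 (log2 -1.24 ± 0.21, adjusted p 3.16e-06).

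The CA2/CA3 set, of 22 and 19 spots, was lower than CA1 in 3 of the 8 genes, against 2.9% of all genes lower, 3.03% higher and 5.93% called. Grin2a (log2 -0.87 ± 0.17, adjusted p 0.000115), Grin2b (log2 -0.82 ± 0.19, adjusted p 0.000998) and Gria1 (log2 -0.62 ± 0.14, adjusted p 0.00117) passed, while Grin1 had a log2 difference of -0.11 and Gria2 of -0.25. Gria1 and Grin2b lost their calls without the mouse block. Only 0 spots of the set in mouse 1 and 1 in mouse 2 met the stricter rule on neighbours in the same region. No cluster was named CA2/CA3. All 3 calls, that of Grin2a included, were therefore not tested under either other definition of regions. Of the 9 CA2/CA3 markers, 6 were highest in the set in both mice. The kainate receptor genes Grik4 (log2 3.64 ± 0.39, adjusted p 3.22e-13) and Grik5 (log2 0.86 ± 0.17, adjusted p 0.000156) were higher, the 2 called of 7. Adarb1, the enzyme that edits the Gria2 transcript, was higher (log2 1.20 ± 0.24, adjusted p 8.56e-05), and Shisa7, an auxiliary subunit gene, lower (log2 -1.05 ± 0.27, adjusted p 0.00642). Gsg1l, another auxiliary subunit gene, had no UMI in either CA2/CA3 set, where 3 UMIs would be 15.2 CPM in mouse 1 and 7.04 in mouse 2, against 9.67 and 9.64 CPM in CA1.

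The neuropil set differed from the mean of the 3 cell layer sets in 1 of the 8 genes, where 2.7% of all genes were higher, 0.602% lower and 3.31% called. Grin2c, at 30.9 ± 1.64 CPM against 14.9 ± 3.85, was higher (log2 1.11 ± 0.24, adjusted p 0.00164). Gria1, Gria2, Gria3, Grin1, Grin2a and Grin2b had values between -0.29 and -0.09 and did not pass, nor did Gria4, at 0.74. The calls depended on how regions were formed. With stricter spots, which left CA1 as the only cell layer, Gria1, Gria2, Gria3, Grin1, Grin2a and Grin2b were called lower in the neuropil set and Grin2c was not called. With regions from clusters, which lacked CA2/CA3, Gria1, Gria2, Grin2a and Grin2b were called lower and Gria4 (log2 1.11, adjusted p 0.00107) and Grin2c higher. The clusters named neuropil were led by Hpca and Neurod6 and by Ddn, Itpka and the CA1 marker Spink8. Another cluster, led by Ddn and Hopx, took no region name. Of the 326 and 338 neuropil spots from clusters, 113 and 112 were in the neuropil set, so the tissue compared also differed. Astrocyte markers (6 genes) summed to 1283 and 1326 CPM in the neuropil set, 895 and 993 CPM in CA1 and 861 and 728 CPM in the dentate granule set, and their part in the Grin2c result was not tested. Of 19 scaffold and kinase genes, Camk2a and Shank1, both with dendritic mRNA, were higher here. Both lost their calls without the mouse block, Camk2a also with DESeq2, and Shank1 turned to a log2 difference of -0.32 with the stricter spots.

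Against the neocortex (mean of layers 2/3, 4, 5 and 6), 4 of the 8 genes were higher in the hippocampal cell layers and 1 was lower, where 10.2% of all genes were higher, 10.7% lower and 21% called. Gria1 averaged 452 ± 88.7 CPM against 121 ± 5.95 (log2 1.87 ± 0.09, adjusted p 6.83e-37). Grin2a averaged 208 ± 30.5 CPM against 90.6 ± 7.62 (log2 1.11 ± 0.11, adjusted p 8.47e-16), and Gria2 (log2 0.57 ± 0.07, adjusted p 1.39e-10) and Grin2b (log2 0.58 ± 0.11, adjusted p 8.63e-06) were higher by less. Gria4 was lower (log2 -1.38 ± 0.24, adjusted p 1.09e-06), and Gria3 (-0.06) and Grin1 (0.21) did not pass. Pan-neuronal markers summed to 3261 and 3661 CPM in CA1 and 4817 and 4935 CPM in layer 4, and to 5826 and 7350.3 CPM in CA2/CA3.

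Auxiliary subunit genes divided in the same comparison, with 7 of 15 higher and 3 lower in the hippocampal cell layers. Shisa6, which keeps AMPA receptors at synapses, was higher (log2 3.93 ± 0.27, adjusted p 5.2e-26); the 7 also included Cnih2, Shisa7, Frrs1l, Cpt1c, Cacng5 and Abhd6, and the lower ones were Cacng3, Cacng2 and Gsg1l, of which Gsg1l lost its call with stricter spots and with regions from clusters. Among 19 scaffold and kinase genes 5 were higher, with Camk2a and Camk2b, and 6 lower, with Dlg1, which encodes SAP97 (log2 -1.11 ± 0.13, adjusted p 1.11e-11). The vesicular transporter genes Slc17a7 and Slc17a6 were called higher and lower, but Slc17a7 turned to log2 differences of -0.20 with stricter spots and -0.56 with regions from clusters, and Slc17a6 lost its call under both (-0.84 and -0.02). The stricter spots left CA1 against layers 2/3, 5 and 6, and the clusters left the dentate granule layer and CA1 against layer 6 alone.

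Deep neocortical layers (5 and 6) differed from upper ones (2/3 and 4) in Gria3 alone among the 8 genes, where 1.03% of all genes were higher and 1.94% called. Gria3 averaged 133 ± 7.48 CPM against 89.5 ± 3.4 (log2 0.53 ± 0.15, adjusted p 0.0287), with single-mouse differences of 0.58 in mouse 1 and 0.55 in mouse 2. Gria4 leaned the other way (-0.68) and did not pass. The kainate receptor gene Grik3 was higher in deep layers (log2 1.40 ± 0.33, adjusted p 0.00571), and Camk2a lower (log2 -0.52 ± 0.11, adjusted p 0.00246). Without the mouse block neither Gria3 nor Camk2a was called. White matter markers summed to 7913 and 9982 CPM in layer 6 and 3914 and 4489 CPM in layer 5, against 2369 and 3071 CPM in layer 2/3 and 2934 and 3679 CPM in layer 4, and their part in these results was not tested.

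The relay thalamus differed from the neocortex in 6 of the 8 genes, where 42% of all tested genes were called, 22.4% higher and 19.5% lower. Grin2c averaged 93.2 ± 5.48 CPM against 21 ± 1.25 (log2 2.06 ± 0.14, adjusted p 3.15e-26). Grin2b (log2 0.91 ± 0.10, adjusted p 1.42e-14), Gria4 (log2 0.66 ± 0.14, adjusted p 4.53e-05) and Grin1 (log2 0.27 ± 0.09, adjusted p 0.00802) were also higher. Gria2 was lower, at 137 ± 0.197 CPM against 378 ± 2.11 (log2 -1.56 ± 0.10, adjusted p 1.47e-30), as was Gria1 (log2 -0.85 ± 0.12, adjusted p 3.24e-10). Grin1 lost its call without the mouse block, with stricter spots and with regions from clusters. The stricter spots left out layer 4, and the clusters left layer 6 as the only neocortical layer. Inhibitory markers (5 genes) summed to 122 and 148 CPM in the relay thalamus, 1050.3 and 899.7 CPM in layer 4 and 609 and 909 CPM in layer 6. White matter markers (8 genes) summed to 7981 and 8247 CPM in the relay thalamus and 2934 and 3679 CPM in layer 4. In layer 6 they summed to 7913 and 9982 CPM, so not every compared layer was poorer in them. The part of these mixtures was not tested.

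The less studied NMDA subunit genes Grin2d (log2 1.42 ± 0.28, adjusted p 1.2e-05) and Grin3a (log2 0.70 ± 0.23, adjusted p 0.00864) were both higher in the relay thalamus too, though at 16.1 ± 0.463 CPM and 20.5 ± 1.05 CPM, and Grin3a lost its call with stricter spots. Of the auxiliary genes 7 of 15 were higher and 4 lower: Cacng5, which encodes TARP γ-5, by log2 3.80 ± 0.23, adjusted p 4.27e-31 and Shisa6 by log2 3.80 ± 0.24, adjusted p 1.12e-29. Of the 3 RNA editing genes Adarb1 (log2 2.89 ± 0.09, adjusted p 9.64e-57) and Adarb2 (log2 4.08 ± 0.21, adjusted p 3.28e-37) were higher. Adarb1 stood at 575 ± 26.8 CPM. Of the scaffold genes 5 of 19 were higher and 7 lower, with Homer1 the largest fall (log2 -2.29 ± 0.11, adjusted p 7.62e-39).

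The reticular thalamus, a sheet of inhibitory neurons around the relay nuclei, was lower than the relay thalamus in 6 of the 8 genes and higher in none, where 14.1% of all genes were lower and 28.9% called. Grin2b averaged 37.6 ± 17.9 CPM against 191 ± 47.1 (log2 -2.17 ± 0.15, adjusted p 3.37e-26). Gria1 was lower (log2 -1.55 ± 0.20, adjusted p 1.04e-10), with single-mouse differences of -2.89 in mouse 1 and -1.13 in mouse 2, and its value without mouse 2 rests on 10 UMIs. Grin2a (log2 -1.44 ± 0.16, adjusted p 7.09e-13), Grin1 (log2 -0.71 ± 0.11, adjusted p 1.07e-07), Gria3 (log2 -0.67 ± 0.13, adjusted p 1.75e-05) and Gria2 (log2 -0.49 ± 0.14, adjusted p 0.00251) followed. Gria4 (-0.03) and Grin2c (-0.33) did not pass, but Grin2c was called lower with only the compared regions in the fit (adjusted p 0.0169), with no filter on low counts (0.0458) and with mitochondrial genes left out (0.0457). Inhibitory markers summed to 3270.1 and 2958 CPM against 122 and 148 CPM, white matter markers to 15718 and 17633 CPM against 7981 and 8247 CPM, and pan-neuronal markers to 3425 and 3536 CPM against 5520.2 and 5563 CPM. The part of these mixtures in the lower levels was not tested. Of 15 auxiliary genes, 11 were lower and none was higher, with Shisa6 (log2 -2.87 ± 0.26, adjusted p 1.77e-18) and Cnih3 (log2 -2.64 ± 0.21, adjusted p 2.77e-21). Grin3a was higher (log2 0.87 ± 0.20, adjusted p 0.000246) and Grin2d lower (log2 -1.18 ± 0.34, adjusted p 0.00346). Of 7 kainate and delta receptor genes 1 was higher, Grik3 (log2 2.13 ± 0.24, adjusted p 2.02e-13), and 2 were lower, with Grid1 (log2 -1.70 ± 0.33, adjusted p 9.58e-06).

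The midline and intralaminar thalamus, which projects widely to cortex and striatum, differed from the relay thalamus in 7 of the 8 genes, 2 higher and 5 lower, where 9.35% of all genes were higher, 9.04% lower and 18.4% called. Gria1 averaged 137 ± 6.21 CPM against 71 ± 2.22 (log2 0.85 ± 0.12, adjusted p 1.05e-08) and Gria2 213 ± 6.68 CPM against 137 ± 0.197 (log2 0.55 ± 0.11, adjusted p 5.42e-05). Gria3 was lower, at 54.4 ± 7.89 CPM against 126 ± 3.55 (log2 -1.27 ± 0.12, adjusted p 6.76e-16), and so was Grin2c (log2 -1.07 ± 0.13, adjusted p 2.63e-11). Grin2a (log2 -0.53 ± 0.12, adjusted p 0.000613), Grin2b (log2 -0.51 ± 0.11, adjusted p 0.000104) and Grin1 (log2 -0.29 ± 0.10, adjusted p 0.0283) were lower by less; Grin1 differed by -0.12 in mouse 1 and -0.27 in mouse 2 and Grin2b by -0.25 in mouse 1 and -0.52 in mouse 2, and both lost their calls without the mouse block and with regions from clusters. Grin3a, whose product lowers calcium flow through NMDA receptors, was higher at 90 ± 6.03 CPM (log2 2.01 ± 0.14, adjusted p 3.31e-24), and Grin2d was higher (log2 1.15 ± 0.18, adjusted p 4.41e-08). Of the auxiliary genes 3 of 15 were higher, with Cacng3 (log2 1.79 ± 0.21, adjusted p 7.81e-12), and 7 lower, with Cnih3 (log2 -1.50 ± 0.15, adjusted p 5.58e-16). Pan-neuronal markers summed to 5104 and 4984 CPM in the midline set, below the 5520.2 and 5563 CPM of the relay thalamus in both mice, and white matter markers to 6215 and 5956 CPM against 7981 and 8247 CPM; their part was not tested.

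The habenula, an epithalamic relay to the midbrain, differed from the relay thalamus in 6 of the 8 genes, where 38.2% of all genes were called, 19.8% higher and 18.4% lower. Gria1 alone was higher, at 251 ± 32.7 CPM against 71 ± 2.22 (log2 1.73 ± 0.12, adjusted p 1.5e-25), and Gria2 had a log2 difference of -0.08. Grin2b was lower, at 34.4 ± 9.87 CPM against 191 ± 47.1 (log2 -2.56 ± 0.15, adjusted p 1.04e-31). Grin2c (log2 -2.36 ± 0.18, adjusted p 3.89e-23), Gria3 (log2 -1.50 ± 0.14, adjusted p 4.97e-17), Grin1 (log2 -1.23 ± 0.12, adjusted p 3.58e-17) and Grin2a (log2 -1.04 ± 0.15, adjusted p 1.54e-09) were lower as well. Pan-neuronal markers summed to 2999 and 3317 CPM in the habenula, lower than in the relay thalamus. Choroid plexus markers (7 genes) summed to 1253 and 922 CPM there against 229 and 101 CPM, and the ependyma set, which also had a larger Gria1 than Gria2 share, had 193 and 270.0 CPM of Gria1. The part of neighbouring tissue in the habenula values was not tested. Grin3a was higher (log2 1.19 ± 0.18, adjusted p 1.28e-08) and Grin2d lower (log2 -1.01 ± 0.30, adjusted p 0.00402), but Grin2d turned to 0.22 with regions from clusters. Of 15 auxiliary genes, 8 were lower and 1 was higher, with Cacng2, which encodes stargazin, lower (log2 -1.87 ± 0.17, adjusted p 7.28e-19). Of 19 scaffold genes, 10 were lower and 4 higher, with Shank3 (log2 -2.02 ± 0.24, adjusted p 3.15e-12) and Epb41l1 (log2 2.16 ± 0.15, adjusted p 6.29e-27), whose product is a cytoskeletal partner of the Gria1 subunit.

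The hypothalamus differed from the neocortex in 6 of the 8 genes, where 33.1% of all genes were called, 18.1% higher and 15% lower. Grin2a averaged 21.2 ± 2.52 CPM against 90.6 ± 7.62 (log2 -2.08 ± 0.16, adjusted p 2.32e-23). Grin2b (log2 -1.25 ± 0.13, adjusted p 9.29e-15), Gria3 (log2 -1.11 ± 0.13, adjusted p 2.38e-13), Gria2 (log2 -0.73 ± 0.09, adjusted p 9.09e-11) and Grin1 (log2 -0.56 ± 0.10, adjusted p 9.67e-07) were lower. Gria1 was higher (log2 0.44 ± 0.11, adjusted p 0.000888), with single-mouse differences of 0.15 in mouse 1 and 0.64 in mouse 2, and lost its call without the mouse block and with regions from clusters. The clusters left layer 6 as the only neocortical layer. Pan-neuronal markers summed to 2239 and 2590.3 CPM in the hypothalamus and 4648 and 5049 CPM in layer 6, and the part of that in the lower levels was not tested. Grin3a (log2 1.72 ± 0.22, adjusted p 3.64e-11) and Grin2d (log2 1.42 ± 0.32, adjusted p 0.000105) were higher. Of 19 scaffold and kinase genes 11 were lower and none higher, with Homer1 (log2 -2.75 ± 0.14, adjusted p 5.04e-38) and Camk2a (log2 -2.04 ± 0.12, adjusted p 8.64e-33), and of the vesicular transporter genes Slc17a7 was lower (log2 -4.14 ± 0.13, adjusted p 2.62e-58) and Slc17a6 higher (log2 1.70 ± 0.14, adjusted p 1.71e-21).

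**Figure D5:**
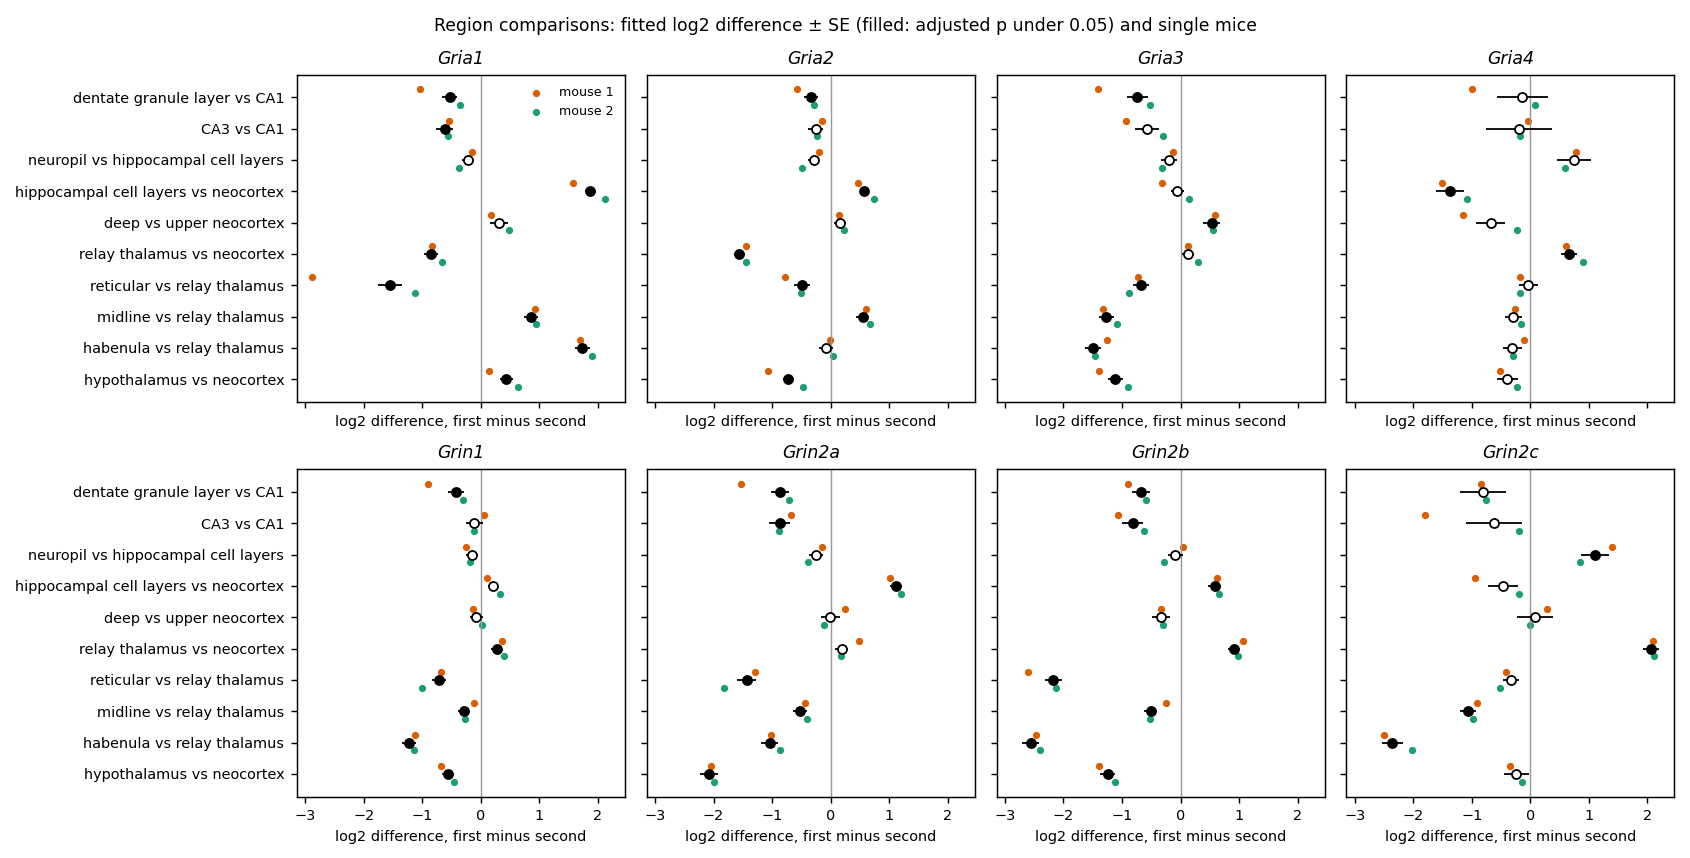
Fitted log2 difference ± SE (black) for each subunit gene in 10 region comparisons, with single mice in orange and green; filled circles have an adjusted p under 0.05 in edgeR's quasi-likelihood test. Gria1 spans -1.55 (reticular against relay thalamus) to 1.87 (hippocampal cell layers against neocortex).

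The image sides of the hippocampal regions were compared because the design text mentions an injection and ipsilateral staining; the labels do not say which side was injected, so left and right carry no treatment label. In an edgeR fit of 16 libraries (4 regions, 2 sides, 2 mice) none of the 6027 genes tested was called (0%), 242 had an unadjusted p under 0.05, and DESeq2 called none of them either, with 86 at an unadjusted p under 0.05. The fit took 1 left-minus-right difference for both mice. Effects of an injection on opposite image sides in the 2 sections could cancel in it, so it cannot show that the injection had no effect. Of the 8 genes Gria4 and Grin2c did not pass the filter on low counts. The 6 tested genes had log2 differences, left minus right, between -0.05 (Grin1) and 0.26 (Gria3). Gria1 over all hippocampal regions stood at 415 CPM on the left and 381 on the right in mouse 1 and at 484 and 504 in mouse 2. A dependence of the side difference on the region was not called for any of the 6 genes (adjusted p = 1), with Grin2b the lowest at an unadjusted p of 0.0359.

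The 2 mice were set side by side without a test, since their labels, sections and depth differ together and cannot be told apart. Grin2b stood out among the 8 genes: over whole sections it measured 84.9 CPM in mouse 1 and 128 in mouse 2, a 1.51-fold ratio, and it was higher in mouse 2 in 14 of 14 neuronal regions. Gria1 was 1.29-fold higher in mouse 2, and in 11 of 14 neuronal regions. The other 6 genes had ratios from 0.978 (Grin2c) to 1.17 (Grin1), against a median of 1.04 over 12646 genes with at least 200 UMIs. Ratios of 5% and 95% of those genes were below 0.839 and 1.31, and 1.8% of them had a higher ratio than Grin2b and 6.29% a higher one than Gria1.

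Likeness of pattern was described by Pearson's correlation of log2(CPM + 1) over the 18 region means, which share libraries and depth, among 9292 genes of at least 10 CPM. Among the 8 genes Grin1 and Grin2b were most alike (r = 0.90), then Gria3 and Grin1 (0.87) and Grin2a and Grin2b (0.84), while Gria1 and Gria4 were opposed (-0.60). Gria4 and Grin2c, the thalamic pair, had r = 0.67. Gria2 was most like Rasgef1a (0.97), Adgrb2 (0.97) and Phyhip (0.96), and Gria1 like the sodium channel gene Scn3b (0.91), Rab40b (0.90) and Cnih2 (0.88), an AMPA receptor export factor. Gria3 was most like the sodium channel gene Scn8a (0.94), Ndrg3 (0.92) and Tstd3 (0.91), and Gria4 like Rab11fip5 (0.90), Ank1 (0.89) and Cerk (0.89). Grin1 was most like Adgrl1 (0.94), Frrs1l (0.93), which is needed for AMPA receptor assembly, and Rab6a (0.93). Grin2a was most like Lmo7 (0.93), Mrtfa (0.93) and the neuropeptide gene Cck (0.93), and Grin2b like the calcium pump gene Atp2b1 (0.92), B230334C09Rik (0.91) and Grin1. Grin2c was most like Glrb (0.85), which encodes the glycine receptor beta subunit, Tspan12 (0.84) and Cdc42bpa (0.83).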

How the data were processed

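The authors deposited raw counts of UMIs for every gene and spot. Per the file headers the software was Space Ranger 1.3.1, and the submitters' processing notes name mm10 as the build; alignment settings and gene models: not given in the sources used here. Image scale factors were not used here. Capture was by poly(dT), per the labels' protocols, so counts were not scaled by gene length.

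Spots with at least 500 UMIs were scored for 18 marker sets as mean z-scores (limited to -3 and 6) of logged counts scaled to 10000. A spot took its best set with a score of at least 0.5, a margin of 0.2 and at least 50% of its neighbours in the same compartment. Each region held at least 10 spots per mouse. Spots can mix cells, so no doublet caller was run. Counts were summed per mouse and region, or per mouse, region and image side. Each section was divided into image sides along its axis of best mirror symmetry, tilted by 3 and -2 degrees, and 47.6% and 62.4% of mirrored spots fell in the same region. Members, lists and comparisons were chosen with earlier results of these data known.

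The test was edgeR 4.0.16's quasi-likelihood F-test under R 4.3.3, after TMM scaling and filterByExpr, with a Benjamini-Hochberg adjusted p threshold of 0.05. The region fit had 17 residual and 104 prior degrees of freedom, and the side fit 7 and 60.7. The mouse was a block because all regions of a mouse come from 1 section. SEs were derived as the log2 value over the root of its F statistic. A simulation of the dentate granule layer against CA1 with 10804 genes, of which 100 were changed by log2 1 and 100 by log2 0.5, called 88% and 30% of them and 4 of 10604 unchanged genes. It gave all genes the same dispersion and each gene a mouse effect that was equal in every region. It therefore cannot show how calls behave where the mice differ by region, as in the dentate granule set. All 8 members were named in every comparison, and from each list up to 2 genes with the largest called change that went the same way in both mice. The lists held 3 further NMDA receptor subunit genes, 7 kainate and delta receptor genes, 16 auxiliary and assembly genes, 19 scaffold and kinase genes, 3 RNA editing genes and 3 vesicular transporter genes.

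Alternatives were DESeq2 1.42.0, no filter on low counts, mitochondrial genes left out, no mouse block, only the compared regions in the fit, each mouse left out, spots with at least 50% of neighbours in the same region, at least 1000 UMIs per spot, and regions from 26 clusters (Leiden resolution 1.5 in scanpy 1.11.5, Python 3.11.15).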

Additional observations from a re-analysis of the deposited data

How the results depend on the processing

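Of the 47 calls of subunit genes in region comparisons, 35 were made under every alternative with a test and 12 were lost under at least 1. Not every comparison could be run under each alternative: CA3 against CA1 had a test neither with stricter spots nor with regions from clusters. The mouse block moved the most counts: without it (no replicate block) the number of called subunit genes was 2 in place of 6 for the dentate granule layer against CA1, 1 in place of 3 for CA3 against CA1 and 0 in place of 1 for deep against upper neocortex. For the neuropil set 6 genes in place of 1 were called with spots that had at least 50% of neighbours in the same region (without the dentate granule layer and CA2/CA3, which fell below 10 spots), and 6 with regions from clusters (without CA2/CA3); Gria1, Gria2, Grin2a and Grin2b were in both sets, Gria3 and Grin1 only in the first and Gria4 and Grin2c only in the second. The number of neuronal regions in which Gria2 held the largest AMPA share in both mice was 13 of 14; it was 7 of 10 with those stricter spots, where the habenula was joined by the relay thalamus (Gria3 33.8% and Gria2 33.7% in mouse 2) and the reticular thalamus (36.5% and 36.0% in mouse 1), and 8 of 9 with regions from clusters, where fewer regions were left. The other counts of called subunit genes stayed within 1.5 times. In the dentate granule layer against CA1, Gria2 and Grin1 also lost their calls with only the compared regions in the fit, and Gria2 with DESeq2. Outside the neuropil set, calls were gained for Grin1 with stricter spots (0.53) and Gria3 (-0.31) and Grin2c (-1.14) with clusters in hippocampal layers against neocortex, Grin2a without the filter in relay thalamus against neocortex (0.29), Grin2c in reticular against relay thalamus, and Gria4 with only the compared regions in midline (-0.29) and habenula (-0.34) against relay thalamus and with clusters in the latter (-0.55).

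No called subunit gene changed direction. Uncalled values that did were, with regions from clusters, Gria4 at 0.46 in the dentate granule layer against CA1, Gria3 at 0.02 in the neuropil set, Gria3 at -0.25 in relay thalamus against neocortex and Gria4 at 0.03 in reticular against relay thalamus. With stricter spots Gria3 was at 0.36 in hippocampal layers against neocortex. Grin2a in deep against upper neocortex, at 0.00, was at 0.00 with DESeq2 and without the block, 0.04 without the filter and 0.01 without mitochondrial genes. Between image sides, Gria1 was at 0.00 without replicate 1 and 0.17 without replicate 2, Gria2 at -0.01 without the block and -0.02 and 0.02 without replicates 2 and 1, Grin1 at 0.04 with stricter spots, Grin2a at -0.10 without replicate 2 and 0.13 without replicate 1, and Grin2b at 0.00 without the block and -0.16 and 0.36 without replicates 1 and 2. Among the listed genes, 4 called values did change direction. Shank1, called at 0.58 in the neuropil set, was at -0.32 with stricter spots, and Grin2d, called at -1.01 in habenula against relay thalamus, was at 0.22 with clusters. In hippocampal layers against neocortex Grik4, called at 0.98, was at -0.70 with stricter spots and -0.56 with clusters, and Slc17a7, called at 0.19, was at -0.20 and at -0.56, the last of them called the opposite way (edgeR adjusted p 1.13e-05); both alternatives lacked CA2/CA3 and some cortical layers. The cause was not tested.

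Leaving out a mouse leaves no residual degrees of freedom in region comparisons, so those are values with no test, given in the text as single-mouse differences. Depth limits Gria4 and Grin2c in the hippocampal cell layers, with 1 to 17 UMIs each in mouse 1, and Gria1 in the reticular thalamus.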
